A study of Homo sapiens with 8 samples.

Results

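The response described here is the change in RNA that went with an ISL1 vector across 3 genotypes at once, estimated as 1 shared term per gene. It was measured in islet-like cells grown in culture from H1 cells, a long-used human embryonic stem cell line. On day 11 of differentiation the cells were transduced with a vector for ISL1 and blue fluorescent protein (labelled ISL1 OE) or for the fluorescent protein alone (labelled BFP), and bulk RNA was taken on day 18. The rule took 15 of the 21 libraries: wild type (WT) with 2 ISL1 OE and 2 BFP, a knockout (KO) of ISL1 with 3 and 3, and a KO of PAX6 with 2 and 3. Left out were the third PAX6 KO ISL1 OE library and 5 libraries of PDX1 KO, which serve as a separate check below. All groups share the cell line, the culture and a transduction. No label names a promoter for the vector or a number of clones per knockout.

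ISL1 is a LIM-homeodomain transcription factor that is active in endocrine cells of the islet and in motor and sensory neurons. It binds DNA with cofactors such as LDB1 and is needed for the maturation of cells that make insulin, glucagon or somatostatin. Differentiating cultures of this kind can also hold enterochromaffin-like cells, which make serotonin and resemble endocrine cells of the gut. Any secretory endocrine cell relies on granins, prohormone convertases and the machinery of regulated exocytosis.

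Each of the 15 libraries held between 40959467 and 66818614 estimated counts, and between 24721 and 27304 genes were detected in each. ISL1 RNA was 294 and 497 CPM (counts scaled by library total and TMM factor) in WT BFP and 341 and 322 in WT ISL1 OE. In ISL1 KO it was 65.9, 67.3 and 73.8 CPM with BFP against 63.2, 75 and 87.2 with ISL1 OE, and in PAX6 KO it was 198, 128 and 220 against 158 and 120.7. The pooled log2 fold change of ISL1 was −0.14 ± 0.14 (SE), adjusted p = 0.497, so ISL1 RNA gives no check of which vector a library received. Endocrine identity was checked by CHGA, which was present at 9573 to 30654 CPM in the 15 libraries. SYP had 75.19 to 219.6 CPM, INSM1 562.5 to 1683, NEUROD1 309.7 to 1067 and PCSK1N 306.6 to 777.7. Each of these markers, CHGA included, was called lower with ISL1 OE, so the check covers presence alone. Outside the PAX6 KO ISL1 OE group, the lowest correlation of log2 CPM between 2 libraries of a group was 0.981 among the libraries used. Over all 3 PAX6 KO ISL1 OE libraries the lowest was 0.920, and the 2 used were not examined apart. Because 4 libraries, 3 of them BFP, were read on another set of lanes, values from libraries of 1 lane set are given beside the pooled gene count and several list counts.

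RNA of many genes differed by small amounts between the vector groups. Of 20760 genes tested, 1737 were higher (8.37%) and 2282 lower (11.0%) with ISL1 OE at an adjusted p under 0.05, 19.4% in all. The median size of a called change was 0.47 on the log2 scale, and 281 higher and 209 lower genes changed by at least 1. Genes called higher made up 43.2% of the calls, or 63.8% (2507 higher, 1420 lower) when libraries were scaled by size alone. Within the libraries of lanes 1 to 4 the counts were 838 and 1145. Leaving out the second PAX6 KO ISL1 OE library left 2639 calls in place of 4019, and adding the third left 1107. Without the ISL1 KO libraries 535 genes were called and without the PAX6 KO libraries 1315.

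CNMD had the largest rise among the named genes. It encodes chondromodulin, a secreted protein of cartilage. It had 0.205 and 0.338 CPM in WT BFP against 8.72 and 12.7 in WT ISL1 OE. In ISL1 KO it had 1.51, 0.459 and 1.68 against 5.82, 5.53 and 5.02, and in PAX6 KO 0.634, 0.453 and 0.467 against 15.4 and 7.66. The vector groups of CNMD did not overlap in any genotype, and the pooled rise was 3.63 ± 0.43 (adjusted p = 7.52e-05). Such separation in all 3 genotypes was seen for 706 genes upward (3.40%) and 725 downward (3.49%), and the 12 largest rises and 12 largest falls named here were required to have it.

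HHEX, a homeobox transcription factor that marks delta cells in the islet (chromosome 10, 92689951 to 92695646, plus strand, GRCh38), rose in all 3 genotypes from different starting levels. It had 24.98 and 26.7 CPM in WT BFP and 83.6 and 99.4 in WT ISL1 OE. In ISL1 KO it had 5.29, 5.73 and 3.34 against 33.0, 32.6 and 24.9, and in PAX6 KO 5.57, 7.34 and 8.29 against 25.1 and 24.9. The pooled rise was 2.15 ± 0.16 (adjusted p = 1.73e-06), with every ISL1 OE library above every BFP library of its genotype. SLC4A4, a sodium bicarbonate cotransporter of duct-like epithelium (chromosome 4, 71062667 to 71572087, plus strand), rose by 2.63 ± 0.22 (adjusted p = 5.07e-06). Its ISL1 OE libraries held 31.4 to 57.1 CPM and its BFP libraries 4.90 to 13.9, so the groups did not overlap even across genotypes.

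Among the other large rises were VSIG1, a cell adhesion protein known from stomach epithelium (3.47 ± 0.29), and PRDM14, a zinc finger regulator of pluripotent and germ cells (3.43 ± 0.45). NOX4, which makes hydrogen peroxide, rose by 2.89 ± 0.25, and RIPPLY3, a transcriptional co-repressor, by 2.48 ± 0.40. The fibril-associated collagen genes COL14A1 and COL19A1 rose by 2.54 ± 0.21 and 2.35 ± 0.25. FRZB, a secreted Wnt antagonist, rose by 2.12 ± 0.25, NPTX1, a neuronal pentraxin, by 2.09 ± 0.21, and HSD11B2, an enzyme that inactivates cortisol, by 2.02 ± 0.19. The smallest p-values among rises, besides HHEX, belonged to IGFBP6, which binds insulin-like growth factors, P3H2, a collagen prolyl hydroxylase, and EMX1, a homeobox gene. IGFBP6 (chromosome 12, 53097436 to 53102345, plus strand) had 49.0 to 79.1 CPM in the 8 BFP libraries and 124.5 to 205 in the 7 ISL1 OE libraries, a rise of 1.40 ± 0.09 (adjusted p = 7.74e-07). P3H2 rose by 1.62 ± 0.11 and EMX1 by 1.56 ± 0.11.

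The largest fall among the named genes was that of NPPB. It encodes B-type natriuretic peptide (chromosome 1, 11857464 to 11858931, minus strand) and had 12.6 and 36.8 CPM in WT BFP and 2.69 and 4.50 in WT ISL1 OE. In ISL1 KO it had 2.11, 1.33 and 4.90 against 0.851, 0.434 and 1.03, and in PAX6 KO 1.88, 2.99 and 4.69 against 1.08 and 0.873. NPPB fell by 2.09 ± 0.34 (adjusted p = 0.00098), with WT BFP far above the other BFP groups. ARPP21, a cAMP-regulated phosphoprotein of neurons, fell by 1.86 ± 0.21, BRINP3, a neuronal protein, by 1.84 ± 0.19, and CA3, a carbonic anhydrase, by 1.89 ± 0.22. PROCR, the protein C receptor, fell by 1.54 ± 0.19, MME, the peptidase neprilysin, by 1.499 ± 0.233, and AREG, a ligand of the EGF receptor, by 1.42 ± 0.27. PTHLH, the parathyroid hormone-related protein, and PROKR1, a prokineticin receptor, fell by 1.34 ± 0.18 and 1.35 ± 0.25. SLITRK1, a synaptic adhesion protein, fell by 1.34 ± 0.21 and the long non-coding RNA LINC02714 by 1.60 ± 0.16. The smallest p among falls belonged to PGF, a placental growth factor of the VEGF family (chromosome 14, 74941834 to 74955784, minus strand). PGF had 25.3 to 102 CPM with BFP and fell by 1.11 ± 0.07 (adjusted p = 7.74e-07), while CORO1A, an actin-binding coronin, fell by 1.12 ± 0.09. In WT the falls of MME, PROKR1 and SLITRK1 were small (−0.28, −0.30 and −0.30) beside −1.97, −1.45 and −1.61 in ISL1 KO and −1.88, −1.91 and −1.79 in PAX6 KO. The calls of MME, PROKR1 and SLITRK1, and that of AREG, were lost without the ISL1 KO libraries.

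**Figure D1:**
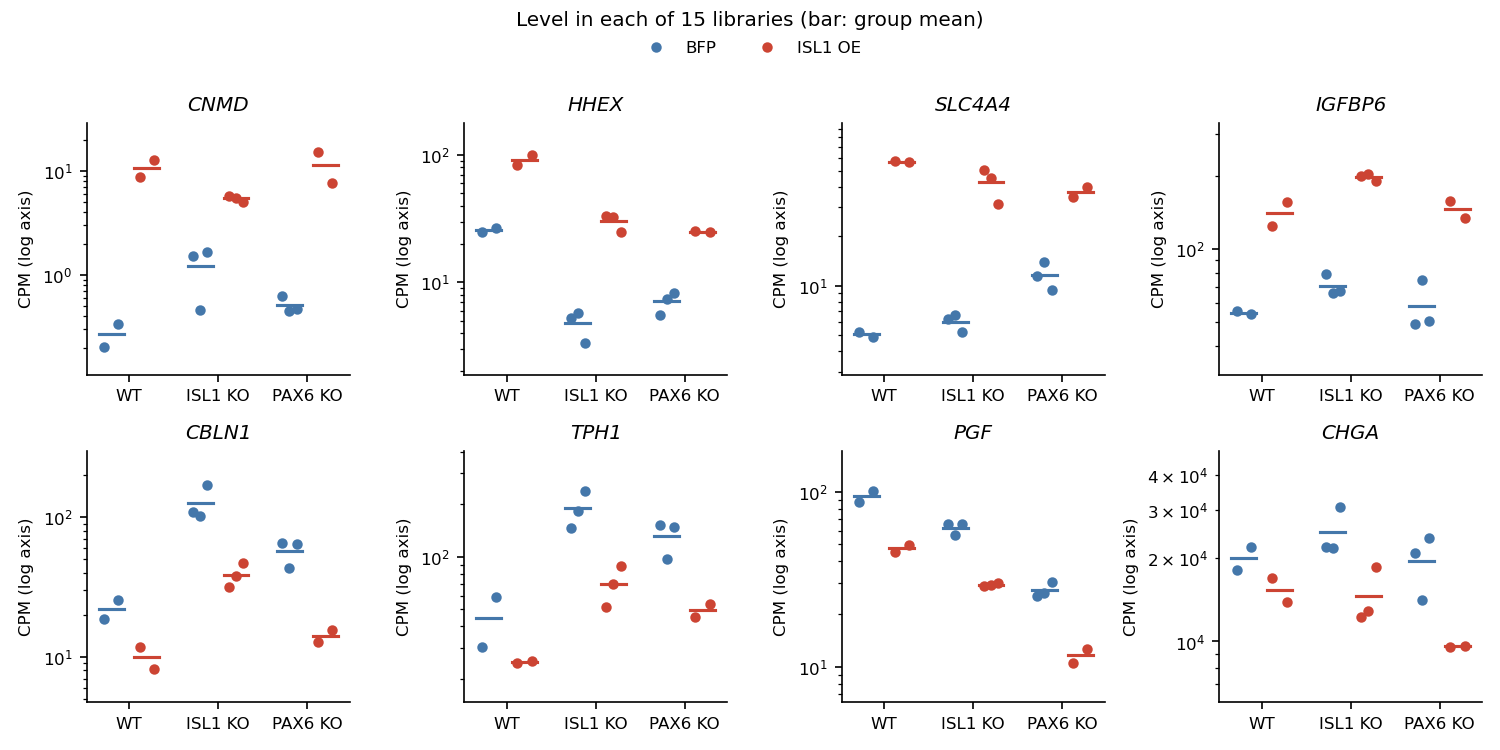
CPM on log axes for 8 genes in the 15 libraries, grouped by genotype, with BFP in blue, ISL1 OE in red and a bar at each group mean. CNMD, HHEX, SLC4A4 and IGFBP6 are higher and CBLN1, TPH1, PGF and CHGA lower with ISL1 OE in each genotype, from different BFP levels.

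Promoter windows, the 250 bases before each gene's start in RefSeq (GRCh38.p14), were searched for the homeodomain words CTAATG and CTAATT on both strands (CATTAG and AATTAG on the other). The word, as ISL1-type homeodomains are known to bind it, stood in 7.75% of 1278 windows of genes called higher, 8.39% of 1741 of genes called lower and 7.74% of 11104 of genes not called. Over all 27305 windows of that length the share was 12.2%. Of the 29 genes named for their size or their p-value, 19 had a window and 2 held the word, CNMD among the rises and BRINP3 among the falls. Their 30-base sites are printed beside those of the hormone genes INS and SST. Both hormone genes held a word and were not called in the pooled effect, although SST rose within ISL1 KO. CNMD holds CTAATT, and BRINP3, INS and SST hold CTAATG. The sites are each written 5′ to 3′ on the strand of the gene, with the word in capitals. They lie at chr13:52740041-52740070 (minus strand), chr1:190478010-190478039 (minus strand), chr11:2161274-2161303 (minus strand) and chr3:187670472-187670501 (minus strand).
CNMD: ccggtgcatggCTAATTgctctggcacttg
BRINP3: atactattaatcCTAATGataatggtccca
INS: ccaccccaggccCTAATGggccaggcggca
SST: gattttgcgaggCTAATGgtgcgtaaaagg
The word starts 239, 163, 82 and 95 bases before the start of CNMD, BRINP3, INS and SST, and INS holds it once more at 215. The shares of the called and the uncalled genes lie close together, and a match in this window is a description of its letters and not of binding.

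Genes of enterochromaffin-like cells fell together. Of 12 tested, 11 were lower and 0 higher, with a median log2 fold change of −1.02, beside −0.01 over all genes. Over all genes tested 8.37% were higher and 11.0% lower, the shares to set beside this and the later list counts. TPH1, the first enzyme of serotonin synthesis (chromosome 11, 18017564 to 18042426, minus strand), had 30.5 and 58.6 CPM in WT BFP against 24.6 and 25.3 in WT ISL1 OE. In ISL1 KO it had 145, 182 and 239 against 51.7, 69.4 and 88.9, and in PAX6 KO 151, 96.5 and 147 against 45.3 and 53.6. No BFP library of TPH1 lay below an ISL1 OE library of its genotype, and the pooled fall was 1.27 ± 0.17 (adjusted p = 0.000224). DDC, the decarboxylase that completes serotonin synthesis, fell by 1.14 ± 0.09 (adjusted p = 5.07e-06), CBLN1, a secreted synapse organiser, by 1.66 ± 0.17, LMX1A, a LIM-homeodomain factor, by 1.14 ± 0.15, and FEV, the transcription factor of serotonergic cells, by 1.13 ± 0.16. The remaining members called lower were the vesicular monoamine transporters SLC18A1 and SLC18A2, GCH1, ADRA2A, TAC1 and CHGB, which neurons and other endocrine cells also use. The summed level of the list ran from 1688 to 4082 CPM in BFP libraries and from 1072 to 1987 in ISL1 OE libraries, with no member at 0 throughout. In bulk RNA, fewer cells of a type and less RNA per cell cannot be told apart. The list's median was −0.43 in WT, −1.13 in ISL1 KO and −1.35 in PAX6 KO, with 1, 9 and 8 members lower. Leaving out any 1 library left 9 to 11 members lower. With the third PAX6 KO ISL1 OE library added 7 were lower, without the ISL1 KO libraries 6, and 8 within lanes 1 to 4.

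Genes of the general secretory apparatus were lower as well. Of 12 granin and prohormone processing genes 9 fell (median −0.50), among them CHGA, the most abundant granin (−0.74 ± 0.14, adjusted p = 0.00253), CHGB (−0.67 ± 0.14), the convertase gene PCSK2 (−0.59 ± 0.12) and SCGN, a calcium sensor (−0.68 ± 0.14). The 1 member that rose was PAM, an amidating enzyme of peptide hormones. CHGA had 18075 and 21883 CPM in WT BFP against 16898 and 13848 in WT ISL1 OE. In ISL1 KO it had 21910, 21815 and 30654 against 12261, 12942 and 18572, and in PAX6 KO 20871, 14158 and 23698 against 9573 and 9624. The groups of CHGA were separate within each genotype, although WT moved least (−0.38 against −0.76 and −1.03). Of 28 exocytosis genes 18 fell and 1 rose, with a median of −0.50. SYT13, a synaptotagmin, fell by 0.95 ± 0.16, SNAP25, a SNARE protein of vesicle fusion, by 0.72 ± 0.14, and RAB27A, a granule-docking GTPase, by 0.65 ± 0.10. The exception was SYT4, a synaptotagmin of maturing endocrine cells, which rose by 0.98 ± 0.11 (adjusted p = 3.06e-05) and had 98.7 to 253 CPM with BFP and 217 to 483 with ISL1 OE. The exocytosis median was −0.06 in WT, −0.59 in ISL1 KO and −0.74 in PAX6 KO, with 0, 9 and 11 members lower; the difference between genotypes passed the test for 0 members of either list, with an adjusted p of 0.0525 for SYT13. These counts depend on the libraries: with the third PAX6 KO ISL1 OE library 8 exocytosis and 1 granin genes were lower, and without the ISL1 KO libraries 1 and 0. Within lanes 1 to 4 the counts were 12 and 6.

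Islet transcription factors and genes of endocrine progenitor cells fell more often than they rose. Of 30 islet factors 12 were lower and 3 higher (median −0.30), and of 15 endocrine progenitor genes 6 were lower and 2 higher (median −0.25). These lists overlap and are not separate results. INSM1, NEUROD1, NEUROG3 and NKX2-2 are counted lower in both, and FEV is counted in the enterochromaffin-like list as well. NKX6-1, a beta cell and progenitor factor, fell by 1.18 ± 0.19 (adjusted p = 0.000836), INSM1, a zinc finger factor of endocrine commitment, by 0.69 ± 0.12, NKX2-2 by 0.69 ± 0.16, NEUROD1 by 0.59 ± 0.12 and NEUROG3, the factor that starts the endocrine programme, by 0.47 ± 0.12. FOXA1, NKX6-2 and RFX2 were the 3 that rose, and NKX6-2 stayed at or below 1.12 CPM. In WT 0 islet factors passed in either direction (median −0.07). Within lanes 1 to 4 the islet factors had 9 lower and 1 higher. With the third PAX6 KO ISL1 OE library the 30 factors had 3 lower and 1 higher, without the ISL1 KO libraries 0 lower and 1 higher, and the calls of NKX2-2 (adjusted p = 0.335), NEUROD1 (adjusted p = 0.406) and NEUROG3 (adjusted p = 0.304) were lost.

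Hormone genes did not share this direction. INS had 13704 and 10710 CPM in WT BFP against 15863 and 12922 in WT ISL1 OE, 4482, 4870 and 3406 against 3685, 4605 and 4899 in ISL1 KO, and 1882, 1648 and 1272 against 1402 and 1996 in PAX6 KO. The vector groups of INS overlapped in each genotype, and the pooled change was 0.11 ± 0.12 (adjusted p = 0.529). GHRL was at 0.00 ± 0.16 and IAPP at 0.86 ± 0.32 (adjusted p = 0.070). Of 7 hormone genes 1, PYY, was called higher (1.11 ± 0.37, adjusted p = 0.0470), a call that was lost when any of 10 libraries was left out, with an adjusted p of up to 0.103. Within ISL1 KO 5 of the 7 were higher (median 2.32), and in WT and PAX6 KO 0 passed in either direction. Cell type lists were mixed: 3 of 28 beta cell genes rose and 8 fell, 4 of 22 alpha cell genes rose and 9 fell, and 3 of 11 delta cell genes rose and 0 fell. The 8 beta cell genes lower became 4 without PAX6 KO ISL1 OE replicate 1, 1 with the third PAX6 KO ISL1 OE library and 1 without the ISL1 KO libraries. With the third PAX6 KO ISL1 OE library 3 alpha cell genes were lower and 1 higher, and within ISL1 KO 5 were lower and 6 higher. The beta cell genes lower included GLP1R, the receptor of the incretin GLP-1 (−0.70 ± 0.09, adjusted p = 0.000169), and the delta cell genes higher were HHEX, FRZB and RBP4, a retinol carrier (0.94 ± 0.22). RBP4 was not called within lanes 1 to 4 (adjusted p = 0.0566).

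Of 16 genes of cholesterol and lipid synthesis 11 were lower and 0 higher, with a median of −0.40. HMGCS1, an early enzyme of the pathway, fell by 0.73 ± 0.11 (adjusted p = 0.000414). It had 304 and 327 CPM in WT BFP against 268 and 220 in WT ISL1 OE, 223, 271 and 222 against 142, 130 and 108.71 in ISL1 KO, and 438, 282 and 350 against 211 and 197 in PAX6 KO, separate within each genotype. IDI1, an isoprenoid isomerase, fell by 0.60 ± 0.11 and DHCR7, the last enzyme of the pathway, by 0.56 ± 0.08. In WT alone 0 members passed (median −0.17), in ISL1 KO 6 and in PAX6 KO 7. With the third PAX6 KO ISL1 OE library 3 members were lower, without the ISL1 KO libraries 1, and 9 within lanes 1 to 4.

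Among genes of dividing cells, calls went in 1 direction. Of 20 proliferation genes 11 were higher and 0 lower (median 0.42). They include the replication helicase genes MCM3 (0.45 ± 0.10) and MCM5 (0.50 ± 0.13), the topoisomerase TOP2A (0.61 ± 0.16) and CENPF, a kinetochore protein (0.77 ± 0.19, adjusted p = 0.0108). CENPF had 33.7 and 20.7 CPM in WT BFP against 36.5 and 48.6 in WT ISL1 OE, 80.8, 66.0 and 55.0 against 111.9, 109.4 and 99.9 in ISL1 KO, and 36.5, 60.2 and 18.7 against 70.5 and 82.2 in PAX6 KO. Separation held for CENPF within each genotype, yet 0 of the 20 genes passed in any genotype alone. Leaving out any 1 library gave 5 to 15 called (5 without PAX6 KO ISL1 OE replicate 2), and adding the third PAX6 KO ISL1 OE library gave 2. Of the 20 genes 8 were higher within lanes 1 to 4.

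Of 22 collagen and laminin genes 9 were higher and 1, COL5A2 (−0.91 ± 0.19), lower, with a median of 0.33. The median was larger in WT (0.73) than in ISL1 KO (0.19) and PAX6 KO (0.12), with 2, 3 and 1 members higher. COL4A1, a main chain of basement membrane collagen, rose by 1.16 ± 0.09 (adjusted p = 4.95e-06), from 17.9 to 34.9 CPM in BFP libraries to 38.6 to 73.6 in ISL1 OE libraries. COL4A2, which pairs with it, rose by 0.84 ± 0.13. Within the Notch pathway, which holds back endocrine differentiation, 6 of 18 genes rose and 2 fell, with a median of 0.08. In WT 0 of the 18 passed, and without the ISL1 KO libraries 1 was higher. NOTCH1 rose by 1.33 ± 0.20 and NOTCH3 by 0.79 ± 0.11, along with the target HES1 and the ligands JAG1 and DLL1 (0.51 ± 0.11), while the ligand DLL4 fell by 0.96 ± 0.15. Among 27 genes of TGF-beta and BMP signalling 5 rose (18.5%) and 4 fell (14.8%), beside 8.37% and 11.0% over all genes tested. The BMP receptor BMPR1B rose by 1.91 ± 0.17. With the third PAX6 KO ISL1 OE library 1 collagen and laminin gene and 2 Notch genes were higher. Within lanes 1 to 4 each of these lists had 4 higher.

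Markers of other cells moved in both directions, beside 8.37% higher and 11.0% lower over all genes tested. Of 17 intestine and stomach genes 4 rose, among them the trefoil peptides TFF2 (1.66 ± 0.23) and TFF3 (0.92 ± 0.16), and 3 fell, among them VIL1, a microvillus protein (−0.52 ± 0.07). Of 17 pancreatic progenitor and duct genes 5 rose, including the duct factors ONECUT1 (1.02 ± 0.14) and SOX9 (0.57 ± 0.13), and 2 fell. Pluripotency markers had 4 of 8 higher, PRDM14, LIN28A, SOX2 and ZFP42, and a summed level of 89.1 to 141 CPM with BFP and 151 to 242 with ISL1 OE. PRDM14 alone had 2.18 to 33.1 CPM of that sum with BFP and 51.1 to 76.4 with ISL1 OE. SOX2 is also counted in the intestine and stomach list. Of the 8 markers 1 was higher within WT, 3 within ISL1 KO, 1 within PAX6 KO and 1 without the ISL1 KO libraries. Neuron genes had 3 of 20 higher and 4 lower: NEFL, a neurofilament, rose by 1.048 ± 0.117 while SNAP25 fell. For mesenchyme 1 of 16 rose, FN1 (0.55 ± 0.16), with sums of 2438 to 4628 CPM in BFP and 3052 to 6706 in ISL1 OE libraries. The FN1 call was lost, leaving 0 of 16, without any of WT BFP replicate 3, ISL1 KO BFP replicate 3, ISL1 KO ISL1 OE replicate 1 and PAX6 KO ISL1 OE replicate 2 (adjusted p up to 0.0627), with the third PAX6 KO ISL1 OE library (adjusted p = 0.716) and within lanes 1 to 4 (adjusted p = 0.162). Endothelium had 1 of 7 in each direction, with sums of 79.2 to 146 and 75.5 to 153 CPM. Blood and immune cells had 2 of 4 tested in each direction, where TYROBP stayed at or below 0.217 CPM and the haemoglobin gene HBG1 was at 0 in all 15 libraries. The trypsinogen genes PRSS1 (0.92 ± 0.19) and PRSS2 (1.19 ± 0.24) rose among 12 acinar genes with 3 higher and 1 lower, but they are near-identical copies whose counts are uncertain; PNLIP was at 0 in all 15 libraries. The part of such cells in the changes above was not tested.

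**Figure D2:**
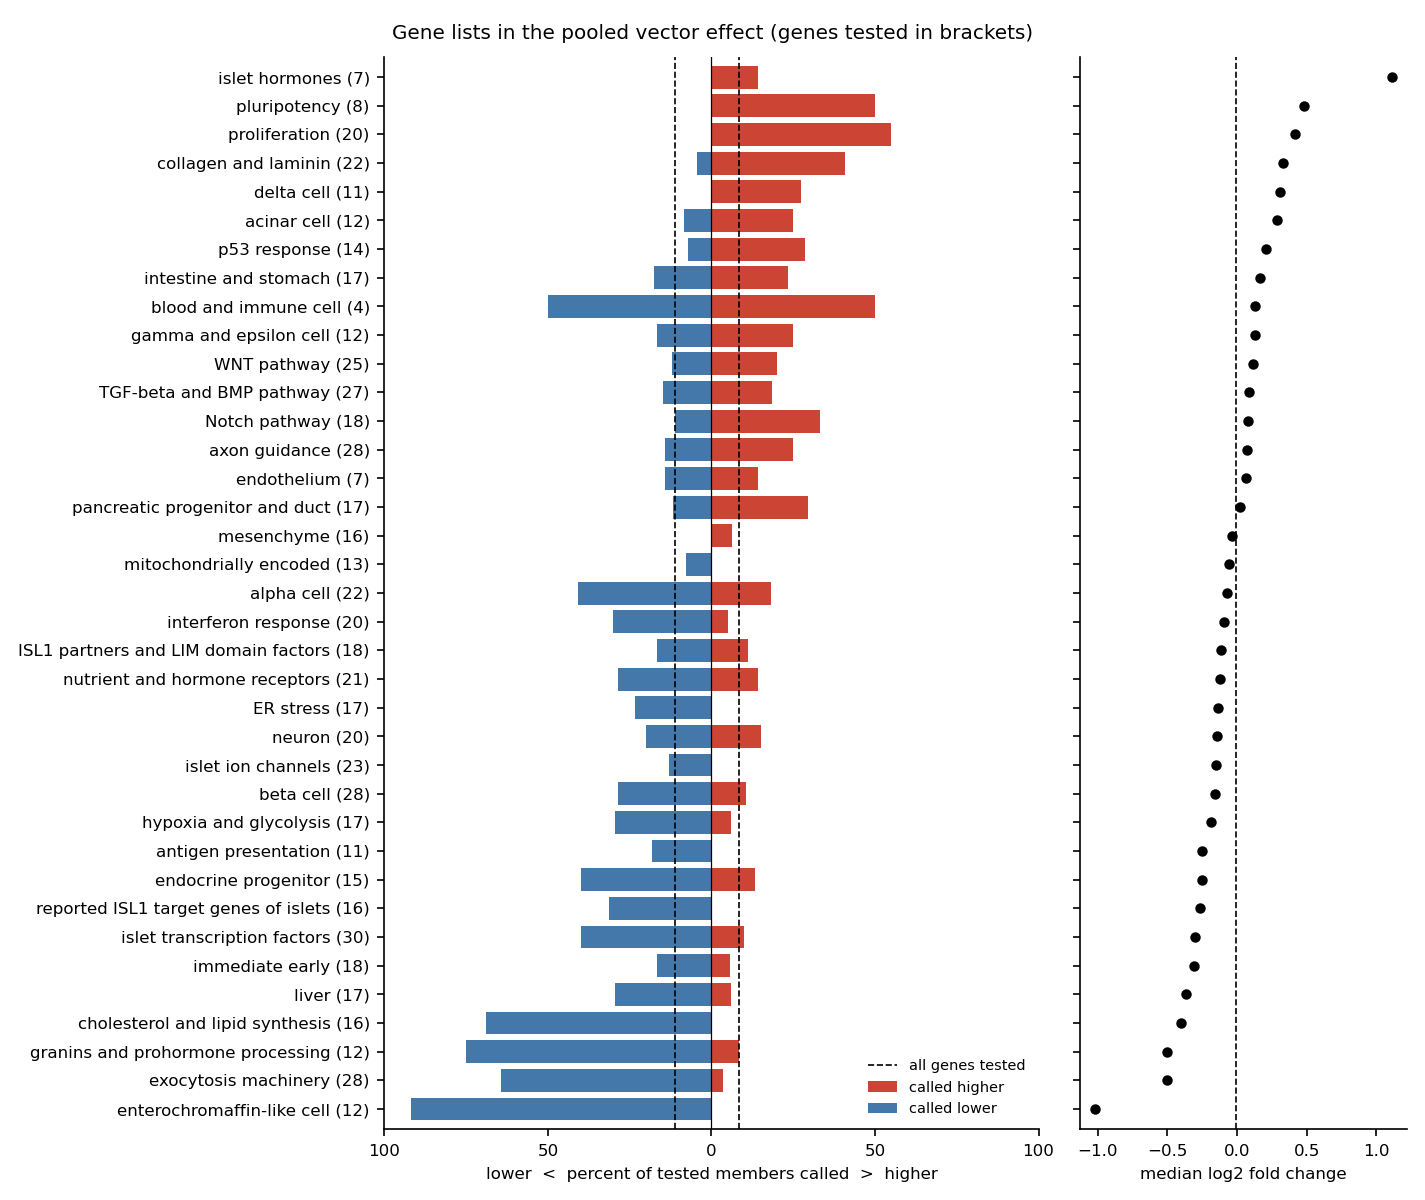
Left, for 37 gene lists, the percent of tested members called higher (red, to the right) and lower (blue, to the left) in the pooled vector effect, with dashed lines at the shares over all genes tested, 8.37% and 11.0%. Right, the median log2 fold change of each list; the enterochromaffin-like list is lowest at −1.02 and islet hormones, with 1 of 7 called, are highest at 1.11.

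ER stress genes had 4 of 17 lower and 0 higher, with CHAC1 at −0.86 ± 0.13 and TRIB3, a pseudokinase of the stress response, at −0.87 ± 0.14. Interferon response genes had 6 of 20 lower and 1 higher, immediate early genes 3 of 18 lower and 1 higher, and p53 response genes 4 of 14 higher and 1 lower. Under scaling by library size alone the interferon list had 2 lower and the p53 list 5 higher and 0 lower. Within lanes 1 to 4, and with the third PAX6 KO ISL1 OE library, the immediate early and p53 lists had 0 in either direction, and leaving out 1 library gave 0 to 5 immediate early genes lower (0 without ISL1 KO BFP replicate 1) and 2 to 4 p53 genes higher (2 without PAX6 KO ISL1 OE replicate 1). The WNT list had 5 of 25 higher and 3 lower, led by FRZB and by the receptor FZD5 (0.85 ± 0.16), and axon guidance 7 of 28 higher and 4 lower, with the ephrin receptor EPHA7 at 1.39 ± 0.21. Hypoxia and glycolysis genes had 5 of 17 lower and 1 higher, and antigen presentation genes 2 of 11 lower and 0 higher. Liver genes had 5 of 17 lower and 1 higher, gamma and epsilon cell genes 2 of 12 lower and 3 higher. With the third PAX6 KO ISL1 OE library the ER stress, hypoxia and glycolysis and liver lists had 1 lower each, and the interferon list 2. That library also ended the calls of CHAC1 (adjusted p = 0.212), FZD5 (adjusted p = 0.0599) and EPHA7 (adjusted p = 0.0647). Without the ISL1 KO libraries the interferon and liver lists had 0 lower, and the ER stress list 2. Islet ion channels had 3 of 23 lower and 0 higher, and nutrient and hormone receptors 6 of 21 lower and 3 higher. The 13% of ion channels lower is near the 11.0% of all genes tested, of which 8.37% were higher. With the third PAX6 KO ISL1 OE library the receptors had 3 lower and 0 higher. Of 16 islet genes reported as ISL1 targets 5 were lower and 0 higher, NKX6-1, GLP1R and NEUROD1 among them. Within ISL1 KO 5 of these 16 were higher and 2 lower, and without the ISL1 KO libraries 1 was lower. Of 18 LIM-domain factors and ISL1 partners 2 rose and 3 fell: LMO4, a LIM-only protein that competes for LDB1, rose by 0.54 ± 0.09, and LDB1 itself was at −0.12 ± 0.10 (adjusted p = 0.41). Of 13 mitochondrially encoded genes 0 rose and 1 fell, with a share of counts from 0.539% to 0.942% across libraries.

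How far the response was common to the genotypes was examined by fitting each vector effect on its own. Within WT 199 genes were higher (0.959%) and 181 lower (0.872%). ISL1 KO had 538 (2.59%) and 748 (3.60%), and PAX6 KO 409 (1.97%) and 837 (4.03%). With a replicate block, ISL1 KO fitted alone had 2390 and 2547, 4937 in place of 1286; the overlaps below are without that block. These counts moved with single libraries: WT had 43 without WT BFP replicate 3 and 58 without WT ISL1 OE replicate 1. ISL1 KO had 585, 586 and 607 without ISL1 KO BFP replicate 3, ISL1 KO ISL1 OE replicate 1 and ISL1 KO ISL1 OE replicate 2. PAX6 KO ranged from 28 without PAX6 KO ISL1 OE replicate 1 to 3287 without PAX6 KO BFP replicate 2. Of the 4019 genes called in the pooled effect 3786 had the same fitted sign in all 3 genotypes, and 2344 were called in no genotype alone. The pooled term was fitted to the same libraries, so this agreement in sign was favoured by the choice of genes. The 3 effects within genotypes share no library with each other. Between ISL1 KO and PAX6 KO 609 genes were called in both, 47.4% of the first and 48.9% of the second, and 608 had the same sign. WT shared 145 calls with ISL1 KO (142 of the same sign) and 129 with PAX6 KO (127 of the same sign), which are 38.2% and 33.9% of the WT calls. Of all 20760 genes 73.6% had the same sign in ISL1 KO and PAX6 KO. For WT and ISL1 KO the share was 62.5%, and for WT and PAX6 KO 61.7%. Over 20760 genes, which are not independent, Pearson's r between log2 fold changes was 0.265 for WT and ISL1 KO, 0.261 for WT and PAX6 KO and 0.463 for the knockouts.

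Genes called from 2 genotypes were then looked up in the third, which had no part in choosing them. Of 330 genes called higher without the ISL1 KO libraries 99.4% were higher in ISL1 KO, where 51.4% of all genes were, and of 195 called lower 96.4% were lower (48.6% of all). For PAX6 KO the shares were 96.2% of 744 and 97.1% of 558, against 51.3% and 48.7% of all genes. For WT they were 86.1% of 1506 and 70.0% of 2227, against 50.6% and 49.4%. The genes that the knockouts placed lower had a median of −0.52 there and of −0.12 in WT, while those placed higher had 0.565 and 0.345. No test was made of this difference in size.

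A test of the vector effect between the genotypes called 10 of 20760 genes (0.0482%), with 2017 at an unadjusted p under 0.05. DESeq2 called 525, and the edgeR count was 221 without a filter on low counts, and leaving out single libraries gave 6 (without WT BFP replicate 3 or WT ISL1 OE replicate 1) to 147 (without PAX6 KO BFP replicate 2). The test thus sets no firm number of genes that respond alike. GCG, the glucagon gene of alpha cells, gave the widest split (adjusted p = 0.00336). It had 88.1, 73.9 and 84.6 CPM in ISL1 KO BFP against 2111, 2593 and 5255 in ISL1 KO ISL1 OE. In WT it had 34980 and 49453 against 32605 and 29564, and in PAX6 KO 28.4, 15.6 and 74.5 against 31.3 and 27.7. GCG therefore rose in ISL1 KO by 5.34 ± 0.51 and was at −0.44 ± 0.52 in WT and −0.42 ± 0.49 in PAX6 KO, so its pooled term (1.67 ± 1.005) describes none of the 3.

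SLC24A4, a sodium and calcium exchanger, had the same pattern at lower levels: 0.329, 0.311 and 0.206 CPM in ISL1 KO BFP against 6.25, 5.998 and 7.13 with ISL1 OE, and 0.14 ± 0.39 and −0.09 ± 0.38 as log2 fold changes in PAX6 KO and WT. RIPPLY3 rose everywhere but most in ISL1 KO (4.23 ± 0.20, against 1.71 ± 0.22 in WT and 1.15 ± 0.19 in PAX6 KO). PRDM14 and VSIG1 rose least in PAX6 KO (1.23 ± 0.20 and 2.10 ± 0.18), where their BFP levels were highest, 21.4 to 33.1 CPM and 6.74 to 8.36 CPM. With ISL1 OE both genes reached similar levels in all genotypes, 51.1 to 76.4 CPM for PRDM14 and 22.7 to 36.7 for VSIG1. TRPA1, an ion channel that senses irritants, went in opposite directions, higher in WT (1.09 ± 0.20) and lower in ISL1 KO (−1.34 ± 0.16) and PAX6 KO (−1.06 ± 0.19). The other 4 genes called, which were named after their values were seen, were G6PC2, CHST2, TMEM86B and ANXA4. SST, the somatostatin gene, rose in ISL1 KO (3.83 ± 0.50) and had an adjusted p of 0.0525 for the difference.

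**Figure D3:**
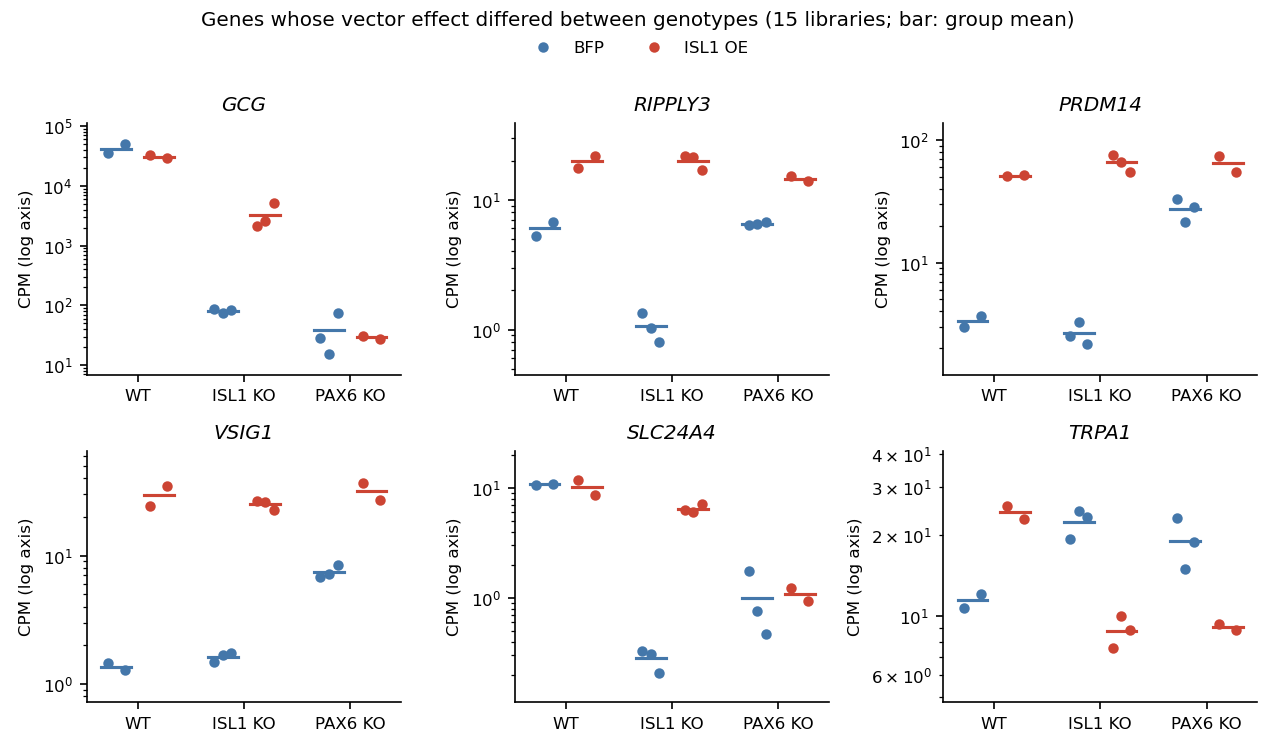
CPM on log axes of the 6 genes with the smallest p for a difference of the vector effect between genotypes, in the 15 libraries, with BFP in blue, ISL1 OE in red and bars at group means. GCG and SLC24A4 rise in ISL1 KO alone among the 3 genotypes, and TRPA1 is higher in WT and lower in both knockouts with ISL1 OE.

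The PDX1 KO libraries, 3 BFP and 2 ISL1 OE, had no part in the pooled effect and share no library with it. Fitted alone with edgeR they gave 0 called genes of 20006, with 3016 at an unadjusted p under 0.05; without ISL1 OE replicate 4 they gave 1981 and without replicate 2 12584, where the lone library is assumed to vary like the BFP libraries. The ISL1 OE libraries differed from each other (correlation 0.891): replicate 2 had 323 CPM of INS and replicate 4 had 45302, while the BFP libraries had 370, 313 and 173. Against the BFP libraries, replicate 2 alone had 95.2% of 1713 genes called higher in the pooled effect on the same side (50.9% of all genes were) and 93.9% of 2272 called lower (49.1% of all). Replicate 4 alone had 47.0% of 1691 and 58.4% of 2280, against 47.7% and 52.3%. Both libraries together had 76.0% of 1687 and 65.7% of 2270, against 52.8% and 47.2%.

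For the leading genes the replicates can be set side by side. Replicate 2 lay above all 3 BFP libraries for 12 of the 12 largest rises and below them for 12 of the 12 largest falls. Replicate 4 lay above for 7 of the rises and below for 8 of the falls. HHEX had 5.97, 6.11 and 3.34 CPM with BFP and 33.1 and 30.4 in replicates 2 and 4, and FRZB had 20.2, 7.15 and 9.41 against 249 and 160. BRINP3 had 237, 293 and 359 against 46.3 and 7.90, and TPH1 380, 483 and 480 against 160 and 20.4. These 4 genes were on the same side in both libraries. NPPB had 0.769, 0.817 and 1.06 against 0.127 and 37.1, and AREG 14.9, 8.51 and 5.39 against 1.56 and 315, so for these the replicates lay on opposite sides.

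**Figure D4:**
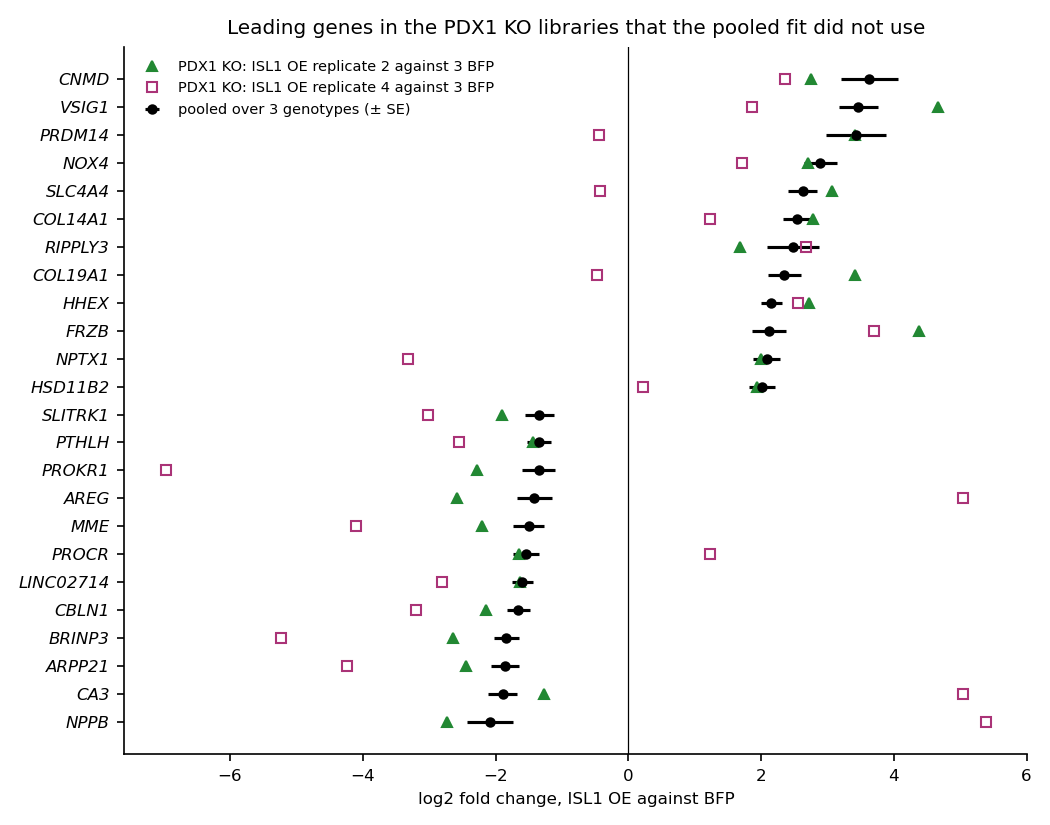
Log2 fold changes of the 12 largest rises and 12 largest falls, pooled over 3 genotypes (black, ± SE) and in PDX1 KO with ISL1 OE replicate 2 (green triangles) or replicate 4 (open purple squares) set against 3 BFP libraries. The triangles follow the sign of the black points for all 24 genes, and the squares depart from it for NPPB, CA3, PROCR, AREG, PRDM14, SLC4A4, COL19A1 and NPTX1.

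The third PAX6 KO ISL1 OE library shares its BFP libraries with the pooled effect, so its levels are given as values only. It had 30.4 CPM of CNMD, 42.1 of HHEX, 52.4 of VSIG1 and 229 of IGFBP6, on the side of the other ISL1 OE libraries of PAX6 KO. It had 16.99 CPM of CBLN1, 44.9 of TPH1 and 15.5 of BRINP3, below the PAX6 KO BFP libraries as the others were. It also had 21886 CPM of CHGA and 943 of NEUROD1, inside and above the range of the PAX6 KO BFP libraries, and 14813 of GHRL, above all of them. Other leading genes did not follow the pooled effect in this library. P3H2 (6.60 CPM) and NPTX1 (4.02), which rose in the pooled effect, lay below all PAX6 KO BFP libraries. COL14A1 (10.9), PTHLH (199) and PROCR (2.91) lay inside the range of the PAX6 KO BFP libraries.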

How the data were processed

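Bulk RNA was sequenced on 4 lanes per library from an unstranded kit without molecular identifiers, per the labels' protocols. The authors deposited estimated counts per gene and lane, of which 19.2% were not whole; reads were aligned with STAR to GRCh38, per the submitters' processing notes. Lanes were summed and rounded. Of 97 columns, 12 belonged to 3 libraries that no label names and were not used, and 1 duplicate was dropped. Of 38592 genes, 25647 matched a symbol; coordinates are from GENCODE release 29.

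Genes kept by filterByExpr were fitted with edgeR 4.0.16 in R 4.3.3 (quasi-likelihood F test, TMM factors of 0.867 to 1.10), with genotype and 1 vector term. Calls are Benjamini-Hochberg adjusted p under 0.05 over all 20760 genes. A second model with 1 mean per group gave the effects within each genotype and, with an F test on their differences, between genotypes. Fold changes are log2 ± SE and all p-values unless stated otherwise are from these fits. CPM are TMM-scaled. The code was tested on simulated data. Totals of 40959467 to 66818614 counts per library set the counting precision.

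The members and gene lists were chosen with earlier results of these data known. Named genes were ISL1, PAX6, PDX1 and a panel of islet genes; the 12 largest rises and 12 largest falls among called genes of mean log2 CPM at least 2 whose vector groups did not overlap within any genotype; the 6 smallest p-values; up to 4 called members of each of 37 lists; and 6 genes by the test between genotypes. Alternatives were other scaling, filters, DESeq2 1.42.0, replicate blocks, lane sets and leaving libraries out or in. The series calls the replicates biological, and p-values measure only the spread between these libraries. Same-numbered ISL1 KO libraries deviated together (correlations of 0.123, 0.202 and 0.357, each over 0.1), a pairing read from the data and not the labels. Strand was not kept, so overlapping and antisense genes cannot be told apart.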

Additional observations from a re-analysis of the deposited data

Results flagged for a closer look

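The vector effect differed between the 3 genotypes for 10 genes by the test of the difference itself (edgeR, adjusted over 20760 genes). Given here are 6 of them. They were named for the smallest p in that same test among genes of mean log2 CPM at least 2. The adjusted p was 0.000443 for PRDM14 and 0.000443 for RIPPLY3, both higher with ISL1 OE in all genotypes by unequal amounts. It was 0.00458 for VSIG1, of the same kind. GCG and SLC24A4, each with an adjusted p of 0.00336, rose in ISL1 KO and lay near 0 or below it in WT and PAX6 KO. TRPA1, with an adjusted p of 0.00336, was higher in WT in both ISL1 OE libraries and lower in both knockouts in all ISL1 OE libraries.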

How the results depend on the processing

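The count of 4019 genes stayed within 1.5 times under other scaling (4008 with RLE, 3927 by library size alone), both filters, DESeq2 (5120), lane set as a covariate (3787) and without WT (3805). It moved to 1107 with the third PAX6 KO ISL1 OE library (1104 of the 4019 kept their call and direction), 2258 with that library and all PDX1 KO libraries, 535 without ISL1 KO, 1315 without PAX6 KO, and 1983 within lanes 1 to 4, a choice added after seeing the data, as was the lane covariate. Leaving out 1 library gave 2639 to 4684. The 10 genes between genotypes became 20 by library size alone, 221 without a filter, 525 with DESeq2 and 2 with the third PAX6 KO ISL1 OE library, and 6 to 147 without 1 library. Within WT 380 became 603 without a filter and 26 with the third PAX6 KO ISL1 OE library (43 to 515 without 1 library). Within ISL1 KO 1286 became 235 with that library (585 to 1699), and within PAX6 KO 1246 became 335 (28 to 3287). PDX1 KO alone gave 0 to 12584. The cause of these moves was not tested.

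For same-numbered libraries, deviations correlated by −0.028 in WT and 0.316 to 0.319 in PAX6 KO, so over the 3 genotypes not every pair passed 0.1 and a number is not taken as a pair in the pooled effect. A replicate block gave 3459 pooled calls, a block over genotypes 3217 and a block within ISL1 KO 4937. In 5 of 6 pairs the library correlated best with its own number, a hint from the data and not the design.

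Of 144 named genes called, 84 kept the call with the third PAX6 KO ISL1 OE library, 137 with the replicate block and 41 under every alternative, and 136 kept their direction throughout. The values that reversed were not called. With the third PAX6 KO ISL1 OE library ATF4 was at 0.0576. With all PDX1 KO libraries APOA1 was at 0.24, ATF4 at 0.0692, B2M at 0.0286, SPINK1 at 0.00344 and TPI1 at 0.0676. With both additions ALDOA was at 0.0305, APOA1 at 0.40, APOC3 at 0.19, ATF4 at 0.25, B2M at 0.20, MT-ND2 at 0.13, SPINK1 at 0.33 and TPI1 at 0.19.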
